A study of Mus musculus with 5 samples.

Results

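Genes that encode feedback inhibitors of the MAP kinase pathways were examined in CD4 T cells of the mouse colon: the dual-specificity phosphatase genes Dusp1, Dusp2, Dusp4, Dusp5, Dusp6 and Dusp10 and the Sprouty genes Spry1 and Spry2. These 8 genes were chosen by name from 19937 genes measured. Each was read by 1 probe set annotated with that symbol alone, and all 8 were analysed without a filter on dim values.

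The cells were sorted as CD45+CD3+CD4+ with little CD44 on their surface, and came from the colonic lamina propria, the connective tissue beneath the gut epithelium. The genotype labels of both groups name a floxed allele of Cnb1 (gene symbol Ppp3r1), which encodes the regulatory subunit of calcineurin. The conditional group (CD4cre/Cnb1flox, 3 arrays) also carried a Cre recombinase driven by CD4, and the control group (CD4neg/Cnb1flox, 2 arrays) did not. The controls are also labelled WT, and how this fits with the floxed allele is not stated. No treatment was given, and strain, age and sex are not stated. The CD4 promoter is active from thymic development onward in cells that later become CD4 or CD8 T cells, so deletion is not restricted to the gut. According to the series, 3 to 5 mice per group were used in each of 3 independent experiments. Whether mice were pooled on an array is not stated, so the p-values cover only the spread between these arrays, and that spread may be technical. The study asked whether calcineurin B holds back Th1 genes and JAK/STAT signalling in these cells.

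MAP kinases (ERK, JNK and p38) carry signals from the T cell receptor and from stress to the nucleus. They are switched off by dual-specificity phosphatases, which remove phosphate from both the threonine and the tyrosine of the kinase's activation loop. Many of these phosphatases are themselves induced by the pathway they dampen, which makes their transcripts a readout of recent signalling. Sprouty proteins act further upstream, between receptors and Ras-ERK, and are also induced by ERK signalling in many cell types. Calcineurin is a different phosphatase, switched on by calcium, whose targets are the NFAT transcription factors, which act together with AP-1 factors downstream of MAP kinases in T cells.

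The 2 control arrays differed from each other more than the conditional arrays did, and this bears on every value below. On control replicate 1 the T cell markers Cd3e and Cd4 were read at log2 levels of 9.45 and 9.26, against 12.21 and 11.83 on control replicate 2. The conditional arrays lay between 11.61 and 11.88 for Cd3e and between 11.44 and 11.86 for Cd4. The mean of 12 measured T cell receptor complex genes was 8.38 on control replicate 1, 11.24 on control replicate 2 and 10.93 to 11.18 on the conditional arrays. Markers of epithelium stood at 9.95 on control replicate 1, 8.51 on control replicate 2 and 7.48 to 7.94 on the conditional arrays. Those of stroma and endothelium stood at 10.73, 9.07 and 8.49 to 9.55. Control replicate 1 was thus lowest for T cell markers and highest for both tissue lists. In bulk RNA, fewer cells of a type and less RNA per cell cannot be told apart. The targeted gene, Ppp3r1, was read at 8.64, 8.83 and 8.77 in conditional cells and at 8.99 and 8.60 in the controls. The difference was -0.052 (limma, adjusted p = 0.927), so these values show no loss of the transcript. The probe set may lie outside the deleted part, in which case it checks nothing about the deletion.

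None of the 8 genes passed an adjusted p of 0.05 between conditional and control cells (limma, adjusted over all genes), where 83 of 19937 genes, 0.416%, did so (0.371% as higher and 0.0451% as lower in conditional cells). At an unadjusted p of 0.05, 2 of the 8 passed, Spry1 and Dusp1, against 14.5% of all genes. The median difference of the 8 was -0.30 on the log2 scale, against 0.029 over all genes, and its sign turned with the control, at 0.17 against control replicate 1 and -0.23 against control replicate 2. In 3 of the 8 the conditional and control values did not overlap, against 30.5% of all genes, with Spry1 and Dusp1 lower and Dusp5 higher.

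**Figure D1:**
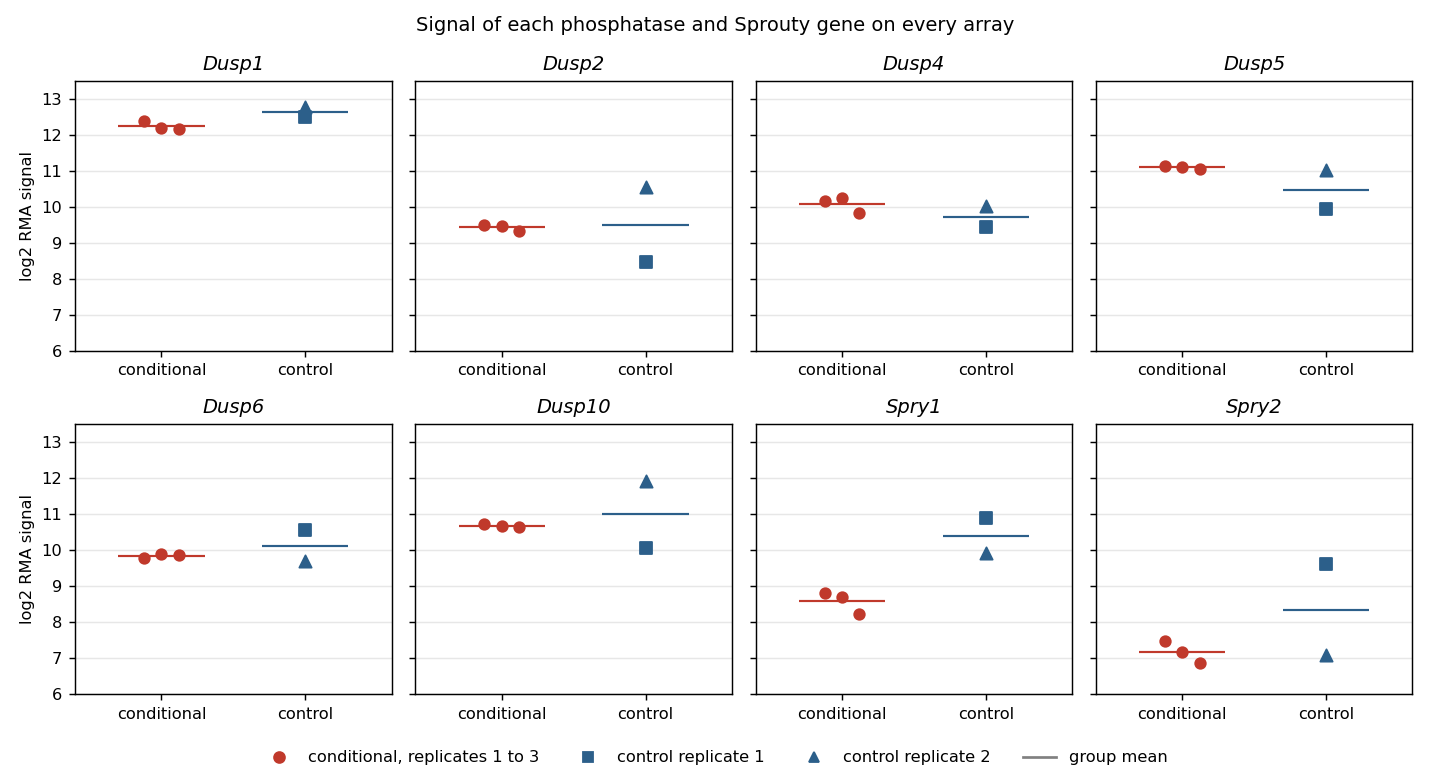
Log2 RMA signal (vertical axis) of the 8 genes on each array, with conditional replicates as circles, control replicate 1 as a square, control replicate 2 as a triangle and group means as lines. The conditional circles of Spry1 and Dusp1 lie below both controls, those of Dusp5 lie just above both, and those of Dusp2, Dusp6 and Dusp10 lie between the controls.

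Spry1, an intracellular inhibitor of receptor signalling to Ras-ERK, had the largest difference of the 8. Its log2 level was 8.81, 8.69 and 8.22 in conditional replicates 1, 2 and 3, and 10.88 and 9.91 in control replicates 1 and 2. All conditional values lay below both controls, with a gap of 1.09 between the groups at their closest. The means were 8.57 ± 0.311 (SD, n = 3) and 10.39 ± 0.689 (SD, n = 2), a difference of -1.82 ± 0.344 (SE) or 3.53-fold lower in conditional cells, with a 95% confidence interval from -2.70 to -0.94. It did not pass over all genes (limma, adjusted p = 0.119). Against control replicate 1 alone the difference was -2.31 (limma, adjusted p = 0.00239), and against control replicate 2 alone it was -1.33 (limma, adjusted p = 0.0364). In those fits the single control is assumed to vary as the conditional arrays do. Spry1 was the one member past the threshold, in the same direction, against each control taken alone. The higher of its controls is the array with the high stromal and epithelial markers. Control replicate 2 also stood above the conditional arrays in the epithelial mean, at 8.51 against 7.48 to 7.94. Its stromal and endothelial mean of 9.07 lay within their range of 8.49 to 9.55. The part of those markers in the level of Spry1 was not tested against either control.

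Spry2, the paralog of Spry1, was high on 1 array. It was read at 7.48, 7.16 and 6.86 in conditional cells and at 9.60 and 7.07 in the controls. Control replicate 1 stood above every other array, while control replicate 2 lay among the conditional values. The difference from the mean of both controls was -1.17 ± 0.750 (SE, limma, adjusted p = 0.547), 2.25-fold lower. It was -2.43 against control replicate 1 alone (limma, adjusted p = 0.00221) and 0.093 against control replicate 2 alone (limma, adjusted p = 0.944). Its control gap of 2.53 lay at the 98.5 percentile of all genes. Like the stromal and epithelial marker lists, Spry2 was higher on control replicate 1 than on control replicate 2, and their part in its level was not tested.

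Dusp1, an immediate-early nuclear phosphatase that acts on p38, JNK and ERK and is widely induced by stress and cell dissociation, was slightly lower in conditional cells. Its log2 levels were 12.39, 12.20 and 12.17 in conditional cells and 12.51 and 12.79 in the controls. The groups did not overlap, and the nearest values were 0.12 apart. The difference was -0.39 ± 0.142 (SE), 1.31-fold lower, with a 95% confidence interval from -0.76 to -0.03, and it did not pass over all genes (limma, adjusted p = 0.311). Unlike the others, its controls lay close together, 0.27 apart, near the middle of all genes (the 49.5 percentile). Against control replicate 1 alone the difference was -0.26 (limma, adjusted p = 0.260) and against control replicate 2 alone it was -0.53 (limma, adjusted p = 0.0997).

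Dusp5, an inducible nuclear phosphatase selective for ERK, was the one member with all conditional values above both controls. It was read at 11.15, 11.12 and 11.06 in conditional cells and at 9.93 and 11.03 in the controls. The lowest conditional value exceeded control replicate 2 by only 0.027. The difference was 0.63 ± 0.331 (SE), 1.55-fold higher, with a 95% confidence interval from -0.22 to 1.47 (limma, adjusted p = 0.465). It was 1.18 against control replicate 1 (limma, adjusted p = 0.00231) and 0.078 against control replicate 2 (limma, adjusted p = 0.878). The larger of these is the difference from the control array with the low T cell markers, and the part of those markers in it was not tested.

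Dusp4, another inducible nuclear phosphatase, of ERK and other MAP kinases, had a similar pattern with overlap. Conditional cells were at 10.17, 10.25 and 9.83 and controls at 9.43 and 10.01. Conditional replicate 3 lay below control replicate 2, so the groups overlapped. Conditional cells differed by 0.37 ± 0.231 (SE, limma, adjusted p = 0.542), at 0.66 against control replicate 1 and 0.074 against control replicate 2.

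The promoters of the 3 genes whose groups did not overlap are shown to set the signal-responsive elements near their start sites beside the values. The sequences are from RefSeq (GRCm38.p6), run from 250 bases before to 50 bases after the annotated start site, and are written 5′ to 3′ on the gene's strand. Capitals mark matches on either strand to the NFAT core GGAAA, to the cAMP response element in its short form TGACG, or to the serum response element (CArG box), to which ERK-regulated factors are recruited.
Dusp1 (chr17:26508423-26508722, minus strand): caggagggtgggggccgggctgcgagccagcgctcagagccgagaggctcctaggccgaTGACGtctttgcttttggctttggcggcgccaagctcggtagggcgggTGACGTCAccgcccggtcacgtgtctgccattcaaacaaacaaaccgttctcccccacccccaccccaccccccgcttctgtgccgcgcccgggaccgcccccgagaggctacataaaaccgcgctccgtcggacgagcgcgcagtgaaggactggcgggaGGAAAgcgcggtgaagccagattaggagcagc
Spry1 (chr3:37639697-37639996, plus strand): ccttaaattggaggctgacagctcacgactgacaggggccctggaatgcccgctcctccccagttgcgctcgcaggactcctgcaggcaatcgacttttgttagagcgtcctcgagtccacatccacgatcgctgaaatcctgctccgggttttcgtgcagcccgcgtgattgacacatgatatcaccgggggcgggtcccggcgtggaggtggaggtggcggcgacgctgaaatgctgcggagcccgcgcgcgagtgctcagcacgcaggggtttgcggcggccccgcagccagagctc
Dusp5 (chr19:53528895-53529194, plus strand): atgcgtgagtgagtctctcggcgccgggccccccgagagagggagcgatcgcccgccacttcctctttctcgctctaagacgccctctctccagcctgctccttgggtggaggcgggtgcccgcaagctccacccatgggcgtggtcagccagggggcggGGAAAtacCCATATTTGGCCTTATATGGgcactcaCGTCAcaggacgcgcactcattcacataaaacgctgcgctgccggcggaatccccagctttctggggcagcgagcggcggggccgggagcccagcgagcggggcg

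The Dusp1 window held a full cAMP response element, TGACGTCA, starting at position -143 from the start site, which 1.79% of the 32851 promoters of the table hold. It also held an isolated short form at -191 and an NFAT core at 19. The Dusp5 window held 2 adjacent CArG boxes, starting at -82 and -72, and 1.63% of all promoters hold any. An NFAT core lay beside them at -90 and a short-form cAMP response element on the other strand at -55. The Spry1 window held no match to any of these letters. Promoters were matched for 7 of the 8 genes. The NFAT core was in 4 of these 7 (Dusp1, Dusp5, Dusp6 and Spry2) against 61.3% of all promoters, the short-form cAMP response element in 3 of 7 (Dusp1, Dusp2 and Dusp5) against 20.8%, and the AP-1 site TGANTCA in 0 of 7 against 7.81%. The short form also matches within the full element, on both strands, and these matches describe letters and not occupied sites.

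In Dusp2, Dusp10 and Dusp6 every conditional value lay between the 2 controls, a pattern found in 17.9% of all genes. Dusp2, known as PAC-1, is a phosphatase first known from activated lymphocytes. It was read at 9.49, 9.47 and 9.33 in conditional cells and at 8.47 and 10.54 in the controls. The difference from the control mean was -0.075 ± 0.604 (SE), with a 95% confidence interval from -1.62 to 1.47 (limma, adjusted p = 0.974). The near-zero mean hid opposite differences, 0.96 against control replicate 1 (limma, adjusted p = 0.00457) and -1.11 against control replicate 2 (limma, adjusted p = 0.0122).

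Dusp10, a phosphatase with a preference for JNK and p38, followed the same order. It was read at 10.72, 10.67 and 10.64 in conditional cells and at 10.07 and 11.92 in the controls. The difference from the control mean was -0.32 ± 0.538 (SE; 95% confidence interval -1.70 to 1.05; limma, adjusted p = 0.860). It was 0.60 against control replicate 1 (limma, adjusted p = 0.0155) and -1.25 against control replicate 2 (limma, adjusted p = 0.00772). For Dusp2 and Dusp10, the control above the conditional arrays was control replicate 2. Its mean of T cell receptor complex genes was 11.24, against 10.93 to 11.18 in conditional cells. The conditional mean was below control replicate 2 for 9 of these 12 genes and above it for 3. The part of T cell content in the levels of Dusp2 and Dusp10 was not tested.

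Dusp6, the cytoplasmic phosphatase selective for ERK, had the reverse order of controls. It was read at 9.79, 9.88 and 9.86 in conditional cells and at 10.54 and 9.69 in the controls. Conditional cells differed by -0.28 ± 0.263 (SE; 95% confidence interval -0.95 to 0.39; limma, adjusted p = 0.705). It was -0.70 against control replicate 1 (limma, adjusted p = 0.00976) and 0.15 against control replicate 2 (limma, adjusted p = 0.659).

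**Figure D2:**
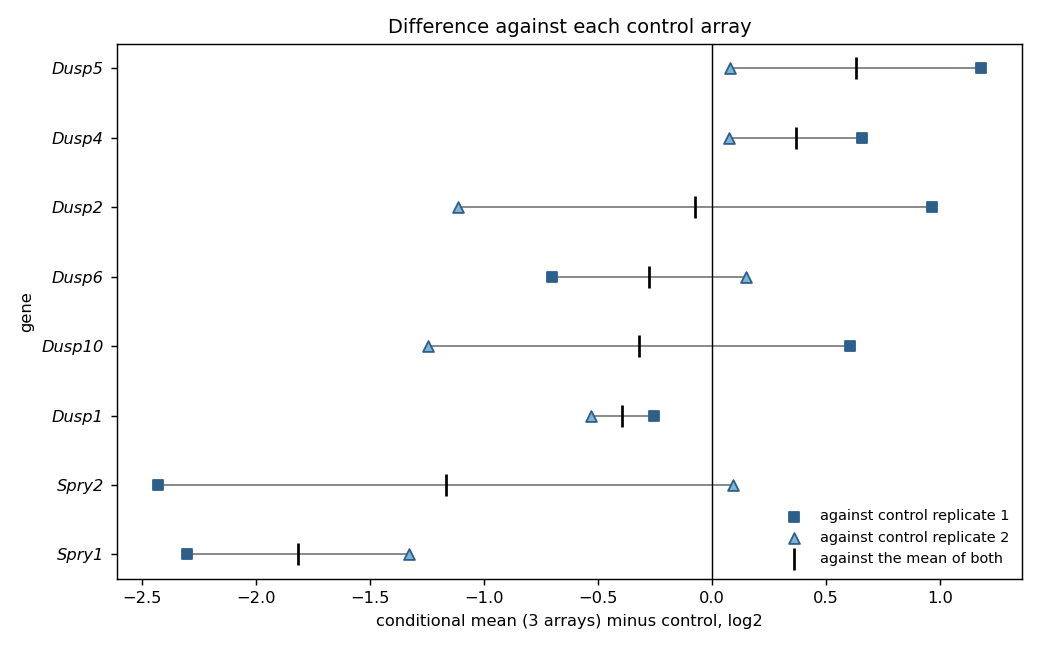
Conditional mean minus control on the log2 scale (horizontal axis) for each gene, against control replicate 1 (squares), control replicate 2 (triangles) and the mean of both (black bars). Spry1 and Dusp1 lie left of 0 against each control, Dusp4 and Dusp5 right of 0, and the other 4 genes change side.

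The direction held against both controls for 4 of the 8 genes, Spry1, Dusp1, Dusp4 and Dusp5, as it did for 55.9% of all genes. Without control replicate 2, 6 of the 8 passed the threshold, 3 higher (Dusp2, Dusp5 and Dusp10) and 3 lower (Dusp6, Spry1 and Spry2), where 27.5% of all genes passed, 11% as higher and 16.5% as lower. Without control replicate 1, 3 of the 8 passed, all lower (Dusp2, Dusp10 and Spry1), where 6.1% of all genes passed, 3.34% as higher and 2.77% as lower. Dusp2 and Dusp10 thus passed in opposite directions in the 2 fits.

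The 8 genes varied more between the controls than among the conditional arrays. Their median control gap was 1.04 on the log2 scale against 0.28 over all genes, and 4 of the 8 (Dusp2, Dusp5, Dusp10 and Spry2) had a gap over 1, as did 13.3% of all genes. Of these 4, Spry2 was higher on control replicate 1, as were 9.36% of all genes by this measure, and the other 3 on control replicate 2, as were 3.92%. The gap exceeded the range of the 3 conditional values in all 8, against 59.3% of all genes. The median SD over conditional arrays was 0.104 for the 8 genes and 0.118 for all genes. It was lowest for Dusp10 (0.0396), Dusp5 (0.0470) and Dusp6 (0.0482) and highest for Spry2 (0.314) and Spry1 (0.311), or percentile 94.3 and 94.2 among all genes measured. Conditional replicate 3 was the lowest conditional array for every member except Dusp6.

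The genes with the most similar profiles were sought among 9442 genes at or above the median level, by the root mean square difference over the 5 arrays after each gene was centred on its own mean. Dusp6 lay nearest to Exd2 (0.0175) and St3gal2 (0.0235), a sialyltransferase gene. Dusp10 lay nearest to Abcg1 (0.0308), a cholesterol exporter gene, and Arhgef1 (0.0417). Dusp5 lay nearest to Rilpl2 (0.0315) and Vps37b (0.0369), a gene of the ESCRT-I sorting complex.

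Spry2 lay nearest to Gab1 (0.0434), an adaptor of receptor signalling, and Agt (0.0549), the angiotensinogen gene. Spry1 lay nearest to Aebp1 (0.0753), a gene known from connective tissue, and Gpc3 (0.0913), a glypican gene. Aebp1 stood at 8.69, 8.71 and 8.13 in conditional cells and at 10.79 and 9.69 in the controls, the same order as Spry1 except between conditional replicates 1 and 2. Dusp1 lay nearest to Mcl1 (0.0545), a survival gene of the BCL-2 family, and Tjp3 (0.0584), a tight junction gene. Dusp2 lay nearest to Inpp4b (0.0899) and Gbp9 (0.0959), and Dusp4 to Dennd4a (0.0796) and Atp11b (0.0941).

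Other genes of the pathways were read from 7 lists. Of 7 other phosphatases of MAP kinases, none passed the test over all genes, and 4 had all conditional values below both controls, against 13.1% of all genes that were fully apart as lower. Their median difference was -0.48. Dusp8, a phosphatase of JNK and p38, differed by -0.66 ± 0.123 (SE, limma, adjusted p = 0.116), Dusp7, of ERK, by -0.52 (limma, adjusted p = 0.239) and Ptprr, a receptor-type tyrosine phosphatase, by -0.48 (limma, adjusted p = 0.408).

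The 5 other Sprouty and Spred genes had a median difference of -0.75, and none passed over all genes. All 5 were below control replicate 1, but only 2 of the 5 were below control replicate 2, where the median was 0.040. Spred2, a suppressor of Raf activation, had all conditional values below both controls and differed by -0.99 ± 0.221 (SE, limma, adjusted p = 0.154). Spred1 differed by -0.75 (limma, adjusted p = 0.649) and Spry3 by -0.19 (limma, adjusted p = 0.482). Of 8 Ras GAPs and other brakes on Ras, none passed over all genes and the median was -0.051. Rasa2, a Ras GAP, differed by 0.46 (limma, adjusted p = 0.195), Dok1, an adaptor that recruits Ras GAP, by 0.65 (limma, adjusted p = 0.231) and Rasa3 by -0.23 (limma, adjusted p = 0.467).

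Of the 13 measured components of the Ras-ERK cascade, 0 passed over all genes, 10 lay above the control mean and 3 below it. The other 6 listed genes were not analysed here. In 8 of the 13, all conditional values exceeded both controls, against 17.4% of all genes, and the median was 0.37, with 0.40 when set against control replicate 1 and 0.31 against control replicate 2. Sos2, an exchange factor that loads Ras, differed by 0.87 ± 0.173 (SE, limma, adjusted p = 0.130), Nras by 0.71 (limma, adjusted p = 0.152) and the kinase gene Braf by 0.47 (limma, adjusted p = 0.174).

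The JNK and p38 cascades were mixed, with 8 of 15 measured genes fully apart as higher and 4 as lower (17.4% and 13.1% of all genes), a median of 0.25 and 0 past the threshold. Mapkapk3 and Mapkapk2, kinases activated by p38, differed by 1.19 ± 0.142 and 0.87 ± 0.104 (SE, limma, adjusted p = 0.0590 for each), and Map2k6, a kinase that activates p38, by -1.11 ± 0.144 (SE, limma, adjusted p = 0.0672).

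Of 12 genes commonly induced through ERK, 11 lay below the control mean, with a median of -0.71 (-0.99 against control replicate 1 and -0.57 against control replicate 2). Fos, an AP-1 subunit gene, fell by 1.56 ± 0.156 (SE, limma, adjusted p = 0.0448) and was the 1 of 12 past the threshold. Of all genes, 0.0451% passed as lower. In 8 of the 12, all conditional values were below both controls, against 13.1% of all genes. With any 1 conditional array left out, no gene passed the threshold, and the calls of Fos, Hspb1, Krt20, Cdhr5 and Tyrobp given here were lost (limma, adjusted p of 0.147 or more for these 5). Genes of stress and cell dissociation, with which Dusp1 is often induced, were counted beside them, with 12 of 17 measured genes fully apart as lower (13.1% of all genes) and a median of -0.76. The small heat shock gene Hspb1 fell by 2.50 ± 0.262 (SE, limma, adjusted p = 0.0496) and was the 1 of 17 past the threshold, against the same 0.0451%. The mean of the stress list was 11.26 and 11.83 on control replicates 1 and 2 and 10.56 to 10.71 on the conditional arrays. Dusp1 was likewise highest on control replicate 2, and the part of dissociation in its level was not tested. Nor was its part in the levels of the genes induced through ERK, which were lower as the stress list was.

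**Figure D3:**
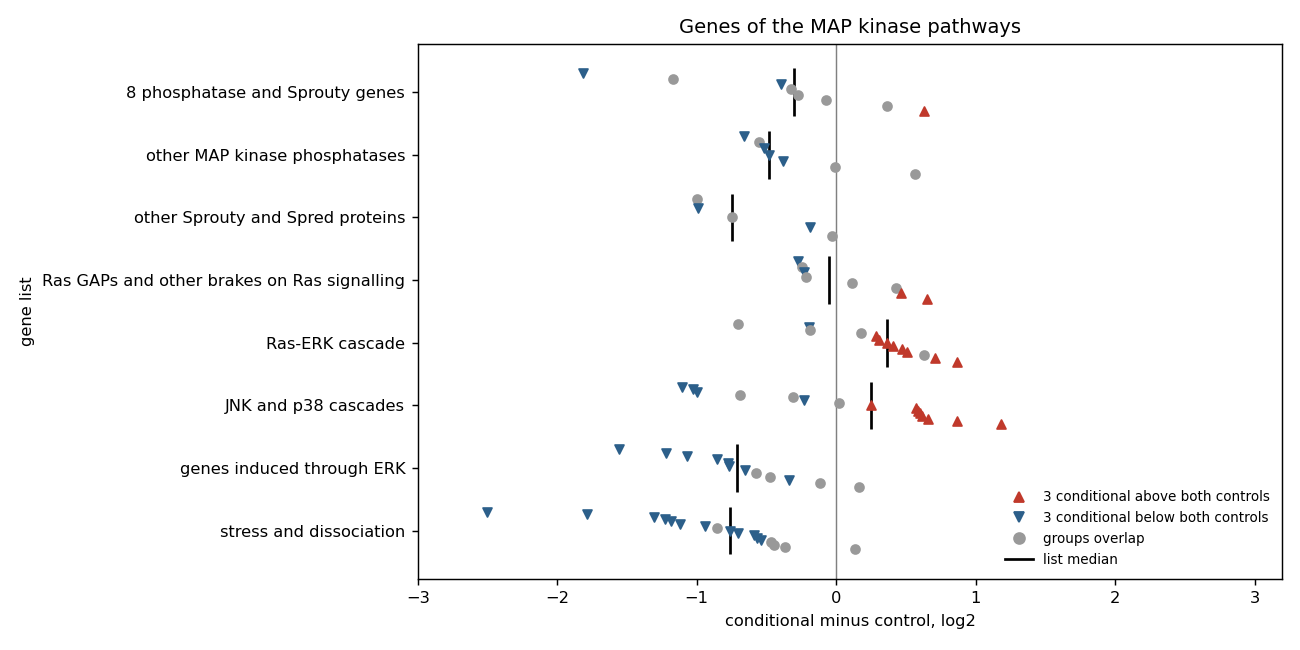
Conditional minus control on the log2 scale (horizontal axis) for each gene of the 8 and of 7 pathway lists, with triangles for groups fully apart, grey circles for overlapping groups and black bars for list medians. The Ras-ERK cascade has a median of 0.37, and the genes induced through ERK have a median of -0.71.

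The other cell types a sort could carry were read by their markers. B and plasma cell markers averaged 9.42 and 9.14 on control replicates 1 and 2 and 8.44 to 9.20 on the conditional arrays, with Cd79a at 9.66 and 10.16 in the controls and 8.69 to 9.78 in conditional cells. Markers of macrophages and dendritic cells averaged 6.56 and 6.74 in the controls and 7.36 to 8.27 in conditional cells. Of their 12 genes, 7 were fully apart as higher, against 17.4% of all genes. Cd68 was at 8.10 and 9.04 in the controls and at most 9.71 in conditional cells. Its value on conditional replicate 1 lay below that on control replicate 2, so the groups overlapped. C1qa, at 6.55 and 6.95 in the controls and 6.51 to 7.70 in conditional cells, overlapped as well. Granulocyte and mast cell markers averaged 5.77 and 5.82 in the controls and 6.45 to 6.58 in conditional cells, with 8 of 11 fully apart as higher (17.4% of all genes). In the controls S100a8 was at 5.74 and 5.69 and Kit at 8.15 and 7.28, and in conditional cells at 6.85 to 7.25 and 9.87 to 9.91. Other mast cell markers of the list did not follow Kit in size. Cpa3 and Ms4a2 overlapped between the groups, with differences of 0.19 and -0.016. Mcpt4 and Fcer1a were fully apart as higher but differed by only 0.29 and 0.14, at mean levels of 4.98 and 4.63.

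Natural killer and innate lymphoid markers averaged 6.18 and 6.87 in the controls and 7.48 to 7.64 in conditional cells, with Ncr1 between 4.88 and 5.20 on every array. Of the 8 measured genes of this list, 4 were fully apart as higher, against 17.4% of all genes. These were Tyrobp, Klrd1 (3.24), Fcer1g (1.71) and Il23r (1.42), and the other 4, Ncr1 among them, overlapped between the groups. Tyrobp, also named after its value was seen, was the 1 of these 8 genes that passed, at 1.88 (limma, adjusted p = 0.0269). Of all genes, 0.371% passed as higher and 0.0451% as lower. Among epithelial genes, Epcam was at 10.57 and 7.71 in the controls and 7.27 to 8.23 in conditional cells, and Krt20 fell by 1.67 (limma, adjusted p = 0.0327). It was 1 of 2 epithelial genes past the threshold, and the other, Cdhr5, was named after its value was seen (-1.41; limma, adjusted p = 0.0366). Of the 12 epithelial genes, 7 were fully apart as lower, against 13.1% of all genes. Among stromal and endothelial genes, Col1a1 was at 11.56 and 9.96 in the controls and 8.76 to 9.50 in conditional cells, and Pecam1 at 8.65 and 9.73 against 9.40 to 9.86. Col1a1, Spry1 and Aebp1 share the order of both controls above all conditional arrays, with control replicate 1 the highest. Of the 12 stromal and endothelial genes, 5 were fully apart as lower (13.1% of all genes) and 4 lay above the control mean. The part of stroma or epithelium in the level of Spry1 was not tested. No call against background was available, so a low level is not shown to be expression.

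**Figure D4:**
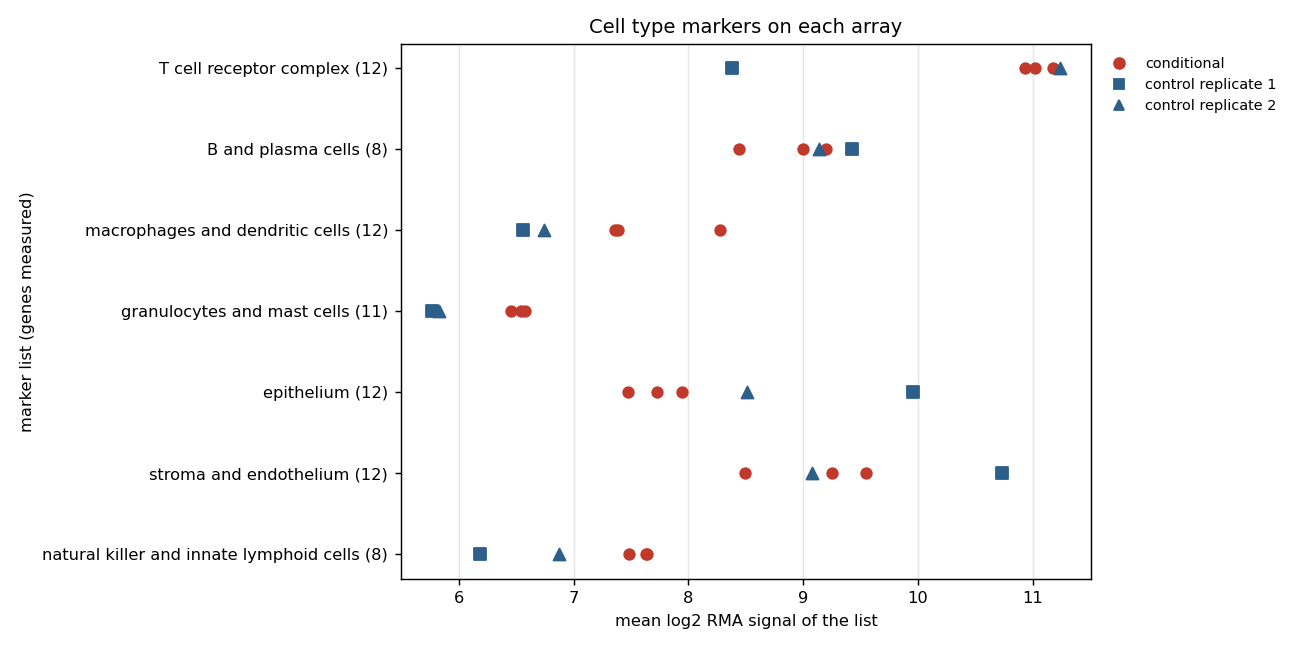
Mean log2 RMA signal (horizontal axis) of each marker list on each array, with conditional arrays as circles, control replicate 1 as a square and control replicate 2 as a triangle. Control replicate 1 is at 8.38 for the T cell receptor complex, below the other 4 arrays, and at 9.95 and 10.73 for epithelium and stroma, above them.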

How the data were processed

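Total RNA with an RNA integrity number of at least 9.2 was amplified and hybridised to Affymetrix arrays, 3 conditional and 2 control, per the labels' protocols. The deposited values are log2 signals, for which the submitters' processing notes name RMA and oligo. RMA normalizes arrays together, which takes out any global shift and shrinks differences of dim genes. Tool versions and genome build: not given in the sources used here. Array medians lay between 7.12 and 7.23, and precision is limited by how few arrays there are.

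Of 34760 probe sets, the platform annotation gave 1 symbol for 21640, several for 1321 and none for 11799. Each of 19937 genes was read from its probe set with the highest mean. Groups follow the genotype given in the labels, and replicate numbers follow the titles. They were compared with limma (version 3.58.1, R 4.3.3; residual degrees of freedom 3, prior 2.10), without covariates, and adjusted by Benjamini-Hochberg over all genes. The procedure was tested on simulated data. Members, lists and tests were chosen with earlier results of these data known.

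Genes named were the 8 members, for each pathway list up to 4 genes past the threshold or otherwise the 3 with the smallest p, fixed defining markers, the 2 nearest profiles of each member, and Ppp3r1. Other genes of the marker lists were named after their values were seen. Alternatives were another normalization, median centring, filters, other probe sets, variance models, weights per array, a block for the replicate number, leaving out each array, and another threshold.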

Additional observations from a re-analysis of the deposited data

How the results depend on the processing

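Under 10 alternatives other than leaving out an array, each of the 8 genes kept its direction and stayed short of the threshold. The filters, other probe set choices and variance models could not change these differences, as each member has 1 probe set. In those alternatives only the adjusted p could move. Spry1 ranged from -1.98 to -1.64, the latter with the replicate block (limma, adjusted p from 0.106 to 0.243 over the 10). The count of genes past the threshold was 13 with array weights and 374 at an adjusted p of 0.1, and 0 of the 8 passed in both. Leaving out 1 array in turn gave 0 to 5474 genes, 0 to 6 of the 8 genes and a median of the 8 from -0.31 to 0.17. In those fits Dusp2 ranged from -1.11 to 0.96, Dusp6 from -0.70 to 0.15, Dusp10 from -1.25 to 0.60 and Spry2 from -2.43 to 0.093, and each turned with 1 control array. Leaving out any conditional array turned none of the 8. Those 3 fits called 0 of all genes (limma), with 7.11% to 10.2% of genes at an unadjusted p of 0.05, among them Spry1 in all 3 and Dusp1 without conditional replicate 1. With the replicate number as a block, 69 genes and 0 of the 8 passed, and the median of the 8 was -0.29. No control carries replicate number 3, so the block takes up conditional replicate 3. Its differences for the 8 genes therefore equal those of the fit without that array, and are not separate from it. With 2 controls, whose deviations from their mean are equal and opposite, the data cannot show whether equal numbers mark paired arrays, and the labels do not say.

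Counts in the pathway lists were taken again with 1 control left out, chosen after seeing that the controls stand apart. Without control replicate 1, 3.34% of all genes passed as higher and 2.77% as lower. In that fit 1 of the 12 genes induced through ERK passed as higher and 6 as lower, 0 and 13 of the 17 stress genes, 1 and 2 of the 13 Ras-ERK genes, 4 and 3 of the 15 JNK and p38 genes, and 0 of the other 3 lists. Without control replicate 2, 11% passed as higher and 16.5% as lower. The counts were then 0 and 9 for genes induced through ERK, 1 and 7 for stress, 5 and 1 for Ras-ERK, 6 and 4 for JNK and p38, 1 and 3 for other phosphatases, 0 and 3 for other Sprouty and Spred genes, and 3 and 1 for Ras GAPs and other brakes.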
